A study of Mus musculus with 8 samples.

Results

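The 37 genes carried by mouse mitochondrial DNA were followed through 8 RNA-seq libraries of brain tumor and naive brain. They were chosen by name: every gene of the deposited count table whose symbol begins with mt-, which gave 37 of 55414 genes. The set is complete for mitochondrial DNA: 13 mRNAs, 2 rRNAs and 22 tRNAs. The mRNAs encode 7 subunits of complex I, 1 of complex III, 3 of complex IV and 2 of complex V. All 37 gene IDs matched the GENCODE M21 annotation (GRCm38), where 28 lie on the heavy-strand transcript and 9, mt-Nd6 and 8 tRNAs, on the light-strand transcript. The label fits the data in that the mRNAs and rRNAs had counts in all 8 libraries, whereas 7 tRNA genes had none in any library.

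The libraries form 4 groups of 2: naive brain and tumor tissue of mice given vehicle, and naive brain and tumor tissue of mice given MRX-2843, a small molecule that inhibits MERTK and FLT3, both receptor tyrosine kinases. The MRX-2843 groups are called treated naive brain and treated tumor from here on. All 8 libraries carry the genotype label ZFTA-RELA fusion, the oncogenic fusion of a mouse model of supratentorial ependymoma, and all 8, vehicle included, carry the drug's name in the field for cell line. Mice in which MRI had shown a tumor were assigned at random to vehicle or 50 mg/kg of the drug by daily oral gavage for 5 days, and were killed 1 h after the last dose. The labels do not give age, strain, the promoter or cells behind the fusion, or whether the mice behind the naive brain samples bore tumors. Within a group the libraries are labelled as duplicates, with no word on separate animals, and the p-values may therefore measure only the spread between technical repeats. Column numbers in the table, 909 for every MRX-2843 library and 914 or 915 for vehicle, are not explained in the labels, and treatment cannot be told apart from them.

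Library totals ran from 51150569 to 112938462 counts. The libraries labelled MRX-2843 tumor stood near naive brain on most lists of cell type markers, whose levels are summed CPM, the counts of a gene relative to all counts of its library. The 5 fusion partner and fusion-model genes (Zfta, Rela, Ccnd1, Igf2 and L1cam) summed to 981 and 977 CPM in vehicle tumor, against 218 and 226 in treated tumor and 193 to 224 in naive brain. The 5 mural and fibroblast markers summed to 9390 and 9362 CPM in vehicle tumor and to 58.8 to 70.8 CPM in the other 6 libraries. Neuron markers (8 genes) summed to 404 and 400 CPM in vehicle tumor, 3338 and 3353 in treated tumor, 6338 and 6274 in vehicle naive and 3165 and 3146 in treated naive brain. The 5 markers of dividing cells summed to 245 and 240 CPM in vehicle tumor, 24.0 and 18.3 in treated tumor and 3.21 to 5.03 in naive brain. The 5 microglia markers summed to 1889 and 1907 CPM in vehicle tumor and 206 to 283 in the other 6 libraries, and the 6 oligodendrocyte markers to 492 and 506 CPM in vehicle tumor, 13311 and 13841 in treated tumor and 6946 to 7112 in naive brain. No marker was at 0 in every library of a group. Treatment also moved with sex-linked RNA: Xist was at 0.461 to 2.75 CPM in the vehicle libraries and at 502 to 771 CPM in the MRX-2843 libraries, and 4 Y-chromosome genes (Ddx3y, Eif2s3y, Kdm5d and Uty) summed to 114 to 179 CPM with vehicle and at most 0.0494 CPM with MRX-2843. With the marker levels and the sex-linked RNA both moving with the labels, an effect of the drug cannot be told apart from a difference in the tissue or the animals sampled. In bulk tissue, fewer cells of a type and less RNA per cell cannot be told apart.

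Mitochondrial DNA is a small circle, present in many copies per cell, that is transcribed from both strands into long precursors. The tRNAs lie between most of the other genes and mark the sites where the precursors are cleaved. The rRNAs form the mitochondrial ribosome, which translates the mRNAs into core subunits of the respiratory chain and of ATP synthase. Every other protein of the system, from the mitochondrial RNA polymerase to the remaining subunits, is encoded in the nucleus. Neurons are rich in mitochondria and rely on oxidative phosphorylation.

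Part of the mitochondrial sequence also lies in nuclear chromosomes, as copies inserted in the course of evolution, and 3 sets of sequences show how far a count can be assigned to a single gene. All were read from the GENCODE M21 transcripts (GRCm38). The first set is the start of mt-Nd3, a complex I subunit (chrM:9459-9518, plus strand), beside the same bases of its copy Gm28438 (chr1:24613060-24613119, minus strand). Capitals mark the single base at which the 345 aligned bases differ, T3C counted from the first base of mt-Nd3.
mt-Nd3: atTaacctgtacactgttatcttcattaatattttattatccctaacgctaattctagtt
Gm28438: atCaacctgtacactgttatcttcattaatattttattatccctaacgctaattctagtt
The second set is the start of mt-Co2, a complex IV subunit (chrM:7013-7072, plus strand), beside its copies Gm28661 (chr1:24615506-24615565, minus strand) and Gm13341 (chr2:22587903-22587962, minus strand). Capitals mark positions 25 and 57, the places among these bases where Gm13341 differs (C25T and G57A, counted from the first base of mt-Co2) and Gm28661 does not.
mt-Co2: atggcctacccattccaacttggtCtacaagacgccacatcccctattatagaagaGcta
Gm28661: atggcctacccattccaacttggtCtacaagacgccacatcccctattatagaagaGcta
Gm13341: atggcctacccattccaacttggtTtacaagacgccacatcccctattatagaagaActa
The third set is the junction of the complex V genes, the end of mt-Atp8 (chrM:7907-7969) and the start of mt-Atp6 (chrM:7927-7989), both on the plus strand. Capitals mark the 43 bases that the genes share.
mt-Atp8: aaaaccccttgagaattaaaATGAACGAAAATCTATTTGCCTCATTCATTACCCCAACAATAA
mt-Atp6: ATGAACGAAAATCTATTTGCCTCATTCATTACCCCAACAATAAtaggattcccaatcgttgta

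Mitochondrial genes took a much smaller share of the counts in vehicle tumor than in any other group. They held 15.1 and 14.7% of all counts in the vehicle naive libraries, 3.26 and 3.37% in vehicle tumor, 17.8 and 18.5% in treated naive and 17.3 and 16.4% in treated tumor. The vehicle tumor pair lay furthest from the rest. No group overlapped another: vehicle naive brain lay below treated tumor, and treated tumor below treated naive brain. The duplicates of each group lay close together. The difference was larger still for the rRNAs: mt-Rnr1 and mt-Rnr2 together held 0.844 and 0.856% of all counts in vehicle naive brain, 0.0717 and 0.0673% in vehicle tumor, 0.944 and 1.10% in treated naive brain and 0.884 and 0.849% in treated tumor. An exact permutation test of 2 libraries against 2 cannot go below a two-sided p of 0.333, so these shares are given without a test.

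**Figure D1:**
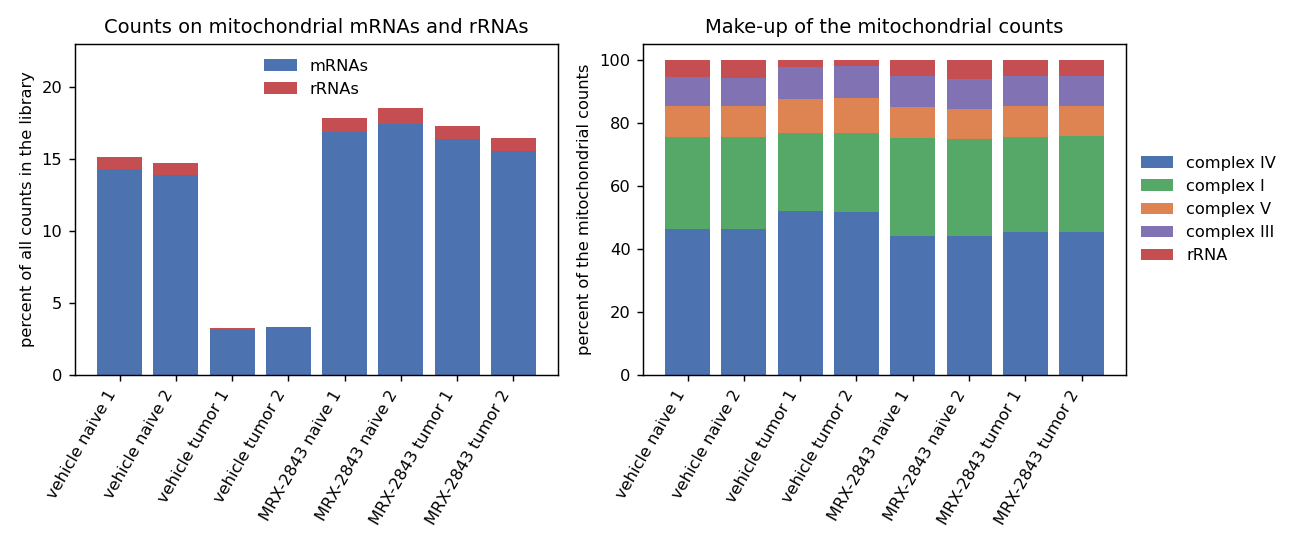
Left, counts on mitochondrial mRNAs and rRNAs as percent of all counts in each of the 8 libraries; right, the mitochondrial counts of each library split by the complex their products belong to, with tRNAs (under 0.04%) left out. The vehicle tumor libraries hold 3.26 and 3.37% where the others hold 14.7 to 18.5%, and their rRNA part is 2.20 and 2.00% of the mitochondrial counts against 5.11 to 5.95% elsewhere.

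Levels of different genes were compared per length, as RPKM (counts per kilobase of gene, scaled to the library total). In vehicle naive replicate 1, mt-Co1, the catalytic subunit of cytochrome c oxidase, stood highest at 26557 RPKM, followed by mt-Atp6 at 21897, mt-Co2 at 21091 and mt-Co3 at 18430. mt-Cytb, the only complex III member, mt-Nd1 and mt-Nd4 followed at 11818, 11556 and 11065 RPKM. The neighbours mt-Atp6 and mt-Co2 changed places between libraries of other groups, and in vehicle naive brain mt-Cytb (11818 and 11565 RPKM) and mt-Nd1 (11556 and 11503) differed in replicate 1 by about as much as the duplicates of mt-Cytb and in replicate 2 by less, whereas mt-Nd4 (11065 and 10492) lay below both. mt-Atp8 was the lowest of the 15, at 314 and 324 RPKM in vehicle naive brain, although it is transcribed together with mt-Atp6, which stood at 21897 and 20697. Of the 204 bases of mt-Atp8, 43 lie in both genes. How reads over both genes were counted is not given in the sources used here, and its part in these levels was not tested. The rRNAs, which are abundant in living cells, stood at only 3662 and 3748 RPKM for mt-Rnr1 and 3125 and 3145 for mt-Rnr2 in vehicle naive brain, both below 9 of the 13 mRNAs in each library. Whether rRNA was depleted or poly(A) RNA selected is not given in the sources used here, and the part of library preparation in these levels was not tested.

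**Figure D2:**
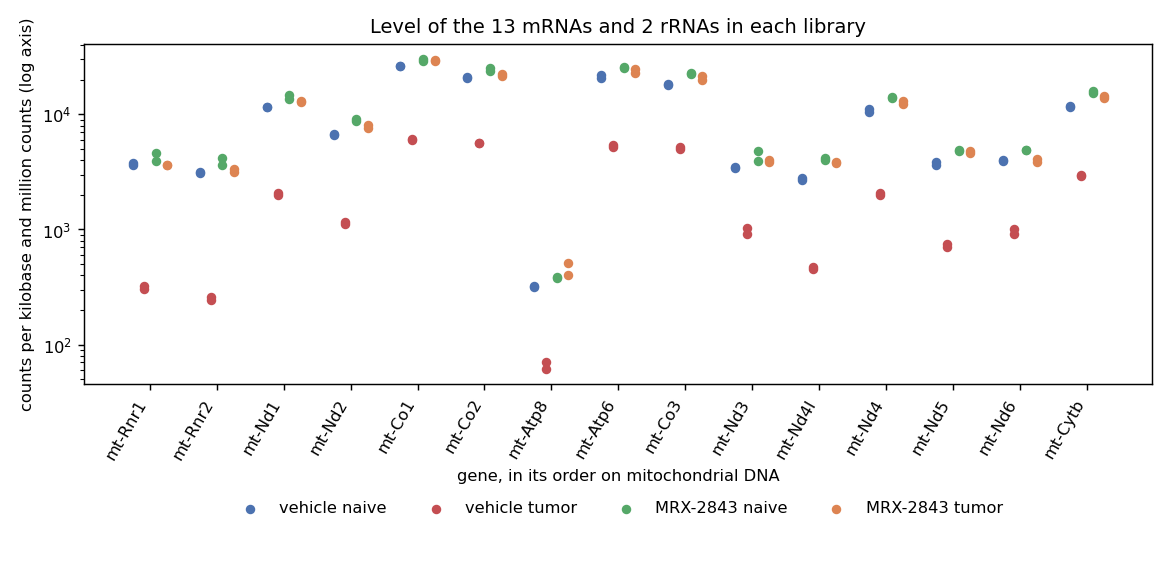
Level of the 13 mRNAs and 2 rRNAs in RPKM (log axis), 1 point per library, in the order of the genes on mitochondrial DNA. The vehicle tumor points lie below those of the other 3 groups at every gene.

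In vehicle tumor against vehicle naive brain, 19 of the 20 mitochondrial genes that passed the filter on low counts were lower and none was higher (edgeR quasi-likelihood test, Benjamini-Hochberg adjusted p under 0.05). Over all 24356 genes tested, 60.1% were called in either direction and 30.8% were called lower. The 20 are the 13 mRNAs, the 2 rRNAs and 5 tRNAs, and mt-Te was the exception. Of the 19, the tRNAs mt-Ts1, mt-Tc and mt-Tn had passed that filter only through groups other than vehicle tumor. Over the 15 mRNAs and rRNAs the median log2 change was -2.52, with a range of -3.90 to -2.08, where the median of all genes was -0.03. Without a scaling factor between libraries the median of all genes moved by 0.25 and the split of all calls from 7125 higher and 7501 lower to 8684 higher and 6192 lower, while the median of the 15 was -2.26.

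The rRNAs changed most. mt-Rnr1, the RNA of the small ribosomal subunit, stood at 3687 and 3741 normalised CPM in vehicle naive brain, 270 and 255 in vehicle tumor, 3908 and 4701 in treated naive brain and 3591 and 3561 in treated tumor. Vehicle tumor lay far below the rest, and no other group overlapped it. The log2 change in vehicle tumor against vehicle naive brain was -3.82 ± 0.07 (SE, adjusted p = 1.0e-15, edgeR), a 14.1-fold difference. Each SE of a log2 change was derived from the edgeR test, as the absolute log2 change divided by the square root of its F statistic. mt-Rnr2, the RNA of the large subunit, went from 5212 and 5201 CPM in the naive to 357 and 341 in the tumor libraries with vehicle, a log2 change of -3.90 ± 0.06 (adjusted p = 3.4e-16, edgeR). Its treated libraries, at 5994 and 6985 CPM in naive brain and 5525 and 5141 in tumor, lay with or above vehicle naive brain.

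All 7 complex I mRNAs were lower in vehicle tumor, by unequal amounts. These encode membrane subunits of NADH dehydrogenase. mt-Nd2 went from 7397 and 7192 CPM to 1003 and 1071, a log2 change of -2.81 ± 0.04 (adjusted p = 1.2e-16, edgeR), and mt-Nd1 from 11660 and 11505 to 1677 and 1763. mt-Nd4l, which overlaps the start of mt-Nd4 by 7 bases and shares its transcript, went from 873 and 840 CPM to 117 and 124, a log2 change of -2.83 ± 0.05 (adjusted p = 5.6e-16, edgeR). mt-Nd4 changed by -2.65 ± 0.04 and mt-Nd5 by -2.60 ± 0.04 on the log2 scale. The smallest complex I change was that of mt-Nd3, from 1269 and 1246 CPM to 311 and 281, a log2 change of -2.09 ± 0.08 (adjusted p = 4.3e-12, edgeR). mt-Nd6, the only mRNA on the light-strand transcript, went from 2213 and 2155 CPM to 416 and 468, or -2.30 ± 0.05. In none of the 7 did the duplicates of tumor and naive brain overlap; over all genes tested, 40.4% were lower in tumor without overlap.

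The mRNAs of complexes III, IV and V fell by somewhat less than most of complex I. mt-Cytb, cytochrome b of complex III, went from 14253 and 13827 CPM in vehicle naive brain to 2908 and 3039 in vehicle tumor, a log2 change of -2.24 ± 0.04 (adjusted p = 3.3e-16, edgeR). mt-Co1 went from 43258 and 42157 CPM to 8022 and 8378, a log2 change of -2.38 ± 0.03 (adjusted p = 2.8e-17, edgeR). The other cytochrome c oxidase subunits, mt-Co2 and mt-Co3, changed by -2.14 ± 0.04 and -2.08 ± 0.04. mt-Atp6, part of the proton channel of ATP synthase, changed by -2.26 ± 0.05, and mt-Atp8, at 67.4 and 69.1 CPM in naive brain and 12.7 and 11.1 in tumor, by -2.52 ± 0.10 (adjusted p = 1.1e-11, edgeR). Every one of these 6 had its vehicle tumor libraries below both vehicle naive libraries, as had 40.4% of all genes.

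tRNAs were nearly absent from these counts, and the 5 that could be tested all lie on the light-strand transcript. mt-Tp, the tRNA for proline, held 691 to 5922 counts a library, and the other 21 together held 66 to 368. Its sequence and that of mt-Te, the tRNA for glutamate, are shown because mt-Tp gave nearly all tRNA counts and mt-Te was the 1 tested gene not called (chrM:15356-15422 and chrM:14071-14139, both minus strand). Capitals mark the anticodon.
mt-Tp: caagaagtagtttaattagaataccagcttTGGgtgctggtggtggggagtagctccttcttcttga
mt-Te: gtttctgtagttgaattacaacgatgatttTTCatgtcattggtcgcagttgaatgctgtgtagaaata
mt-Tp stood at 50.5 and 52.0 CPM in vehicle naive brain, 8.33 and 7.84 in vehicle tumor, 52.4 and 55.5 in treated naive brain and 52.8 and 47.7 in treated tumor. Only vehicle tumor was low, with a log2 change of -2.66 ± 0.09 against vehicle naive brain (adjusted p = 1.6e-12, edgeR). mt-Ts1, for serine, changed by -2.74 ± 0.66, mt-Tc, for cysteine, by -2.45 ± 0.85 and mt-Tn, for asparagine, by -2.63 ± 1.04, with adjusted p of 0.0023, 0.022 and 0.041 (edgeR). Those 3 rest on 2 to 103 counts a library. With 9 and 20 (mt-Ts1), 16 and 6 (mt-Tc) and 18 and 2 (mt-Tn) counts in vehicle tumor, they passed the filter on low counts only through the other groups. A lower value in vehicle tumor was thus favoured in advance, and their calls add no support of their own. mt-Te had 73 and 59 counts in the vehicle naive libraries and 37 in either vehicle tumor library, with a log2 difference of -1.18 ± 0.62 that did not pass (adjusted p = 0.11, edgeR). Without vehicle tumor replicate 2, or without vehicle naive replicate 1, neither mt-Tc nor mt-Tn was called.

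**Figure D3:**
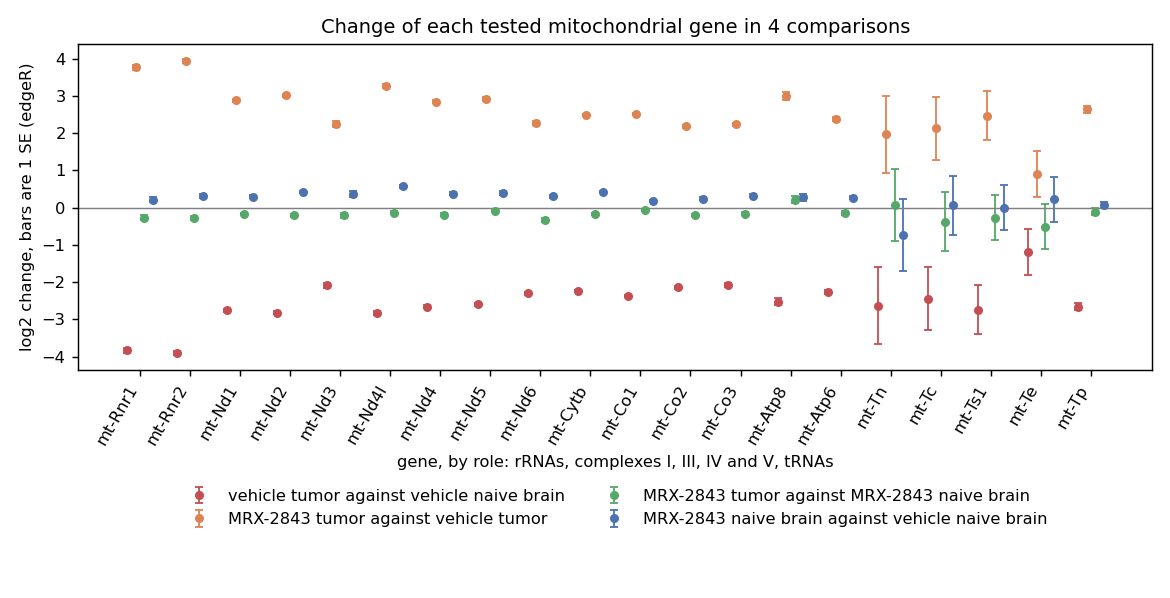
Log2 change and SE (derived from the edgeR F statistic) of the 20 tested mitochondrial genes in 4 comparisons, grouped by role. The vehicle tumor comparison lies at -3.90 to -1.18, the treated tumor against vehicle tumor comparison at 0.89 to 3.93, and both comparisons without vehicle tumor between -0.73 and 0.57.

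A further question was whether the mitochondrial RNAs kept their proportions. In the complexes' shares of the mitochondrial counts, vehicle tumor differed from the other 6 libraries in the same way in both duplicates. rRNA made up 5.58 and 5.81% of the mitochondrial counts in vehicle naive brain, 2.20 and 2.00% in vehicle tumor, 5.29 and 5.95% in treated naive brain and 5.11 and 5.16% in treated tumor. Complex I mRNAs made up 24.8 and 25.05% in vehicle tumor and 29.2 to 30.9% elsewhere, whereas complex IV mRNAs made up 52.0 and 51.7% in vehicle tumor and 44.1 to 46.4% elsewhere. The ratio of complex I to complex IV counts was 0.476 and 0.485 in vehicle tumor, 0.636 and 0.629 in vehicle naive brain, 0.699 and 0.701 in treated naive brain and 0.666 and 0.668 in treated tumor. The vehicle tumor libraries were thus lowest in rRNA and complex I and highest in complex IV, without overlap with any other library.

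A fit that took the mitochondrial counts as the library total, added after the data were seen, tested each gene relative to all mitochondrial counts, its own included. In vehicle tumor against vehicle naive brain 7 of the 20 genes were lower and 5 higher. On that scale 68.5% of all genes were called higher and 7.54% lower, with a median log2 change of 2.38 over all genes. The lower ones were mt-Rnr1 (log2 change -1.40 ± 0.07), mt-Rnr2 (-1.47 ± 0.06) and the complex I mRNAs mt-Nd1 (-0.33 ± 0.04), mt-Nd2 (-0.39 ± 0.04), mt-Nd4l (-0.41 ± 0.06), mt-Nd4 (-0.23 ± 0.04) and mt-Nd5 (-0.17 ± 0.04). The higher ones were mt-Co2 (0.28 ± 0.04), mt-Co3 (0.35 ± 0.04), mt-Cytb (0.19 ± 0.04), mt-Atp6 (0.17 ± 0.04) and the complex I gene mt-Nd3 (0.34 ± 0.09). mt-Co1, the most abundant mRNA, was at 0.04 ± 0.03 (adjusted p = 0.21, edgeR), and mt-Nd6 at 0.12 ± 0.05 (adjusted p = 0.062; 0.17 and 0.029 without vehicle tumor replicate 1).

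Neighbours on the circle could differ. mt-Nd3 lies between mt-Co3 and mt-Nd4l, and its relative change was near that of mt-Co3 (0.34 and 0.35) and unlike that of mt-Nd4l (-0.41). The counts of mt-Nd6 relative to mt-Nd5, which overlap end to end by 14 bases on opposite strands, were 0.369 and 0.384 in vehicle tumor, 0.301 and 0.314 in vehicle naive brain, 0.287 and 0.288 in treated naive brain and 0.239 and 0.241 in treated tumor. Each tumor pair lay outside its own naive pair, above it with vehicle and below it with MRX-2843. Relative to mt-Cytb the counts of mt-Nd6 were 0.143 and 0.154 in vehicle tumor and 0.155 and 0.156 in vehicle naive brain. With MRX-2843 they were 0.127 and 0.128 in tumor and 0.146 and 0.141 in naive brain. On that ratio both tumor pairs lay below their naive pair, so the direction with vehicle depends on the gene mt-Nd6 is set against. Whether counting used the strand is not given in the sources used here, so reads from overlapping genes on opposite strands cannot be told apart.

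**Figure D4:**
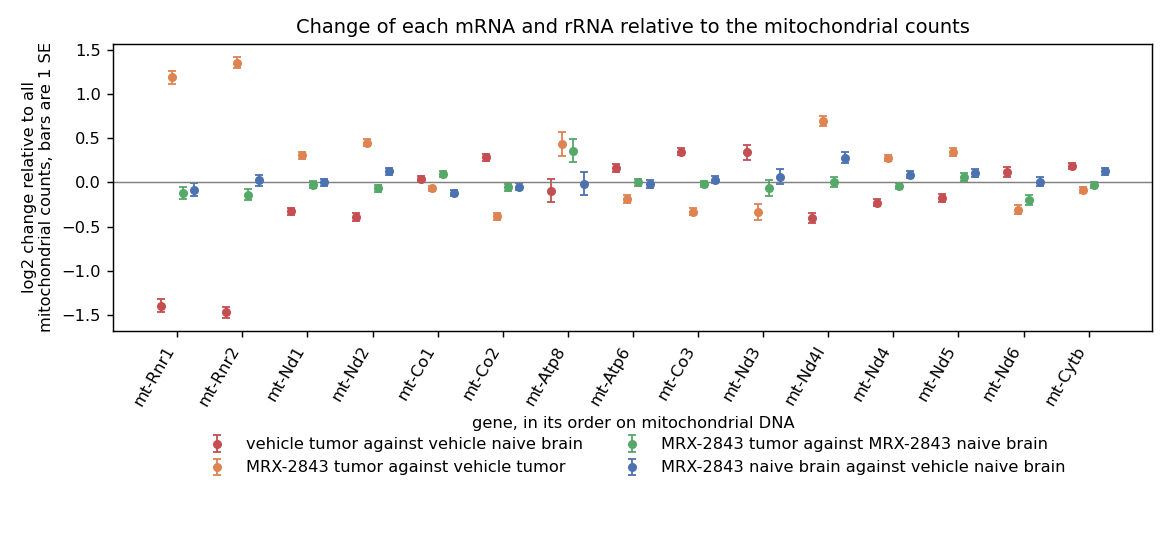
Log2 change and SE (derived from the edgeR F statistic) of each mRNA and rRNA relative to all mitochondrial counts, in 4 comparisons, in gene order. In vehicle tumor against vehicle naive brain the rRNAs lie at -1.40 and -1.47 and the mRNAs between -0.41 and 0.35; both comparisons without vehicle tumor lie between -0.20 and 0.36.

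In treated tumor against vehicle tumor, 18 of the 20 genes were higher and none lower, where 60.4% of all genes were called, 30.6% higher and 29.8% lower. Of the 18, the tRNAs mt-Ts1 and mt-Tc had passed the filter on low counts only through groups other than vehicle tumor. This comparison asks how tumor tissue differs after the drug; it rests on the libraries labelled MRX-2843 tumor, whose markers stood near naive brain as described above, and the part of that tissue make-up in the result was not tested. The median log2 change of the 15 mRNAs and rRNAs was 2.85, from 2.19 for mt-Co2 to 3.93 for mt-Rnr2. mt-Rnr2 rose from 357 and 341 to 5525 and 5141 CPM (log2 change 3.93 ± 0.06; adjusted p = 3.8e-16, edgeR), mt-Nd4l from 117 and 124 to 1157 and 1162 (3.27 ± 0.05), and mt-Co1 from 8022 and 8378 to 47366 and 45652 (2.50 ± 0.03). The tumor groups did not overlap at any of the 20 genes, all higher after treatment, where 40.5% of all genes were higher without overlap. mt-Te at 0.89 ± 0.62 and mt-Tn at 1.97 ± 1.03 did not pass (adjusted p = 0.23 and 0.11, edgeR), although mt-Tn passed without vehicle tumor replicate 1 (4.22, adjusted p = 0.017). The call for mt-Tc, 2.13 ± 0.84 with an adjusted p of 0.041, was lost without vehicle tumor replicate 2 (1.59), without vehicle naive replicate 1 (2.13), without treated naive replicate 2 (2.13) and without either treated tumor library (1.94 and 2.29).

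Relative to the mitochondrial counts, 8 genes were higher and 7 lower in treated tumor than in vehicle tumor; on that scale 6.96% of all genes were called higher and 69% lower. mt-Rnr1 (1.20 ± 0.07) and mt-Rnr2 (1.36 ± 0.06) were highest, then mt-Nd4l (0.70 ± 0.06), mt-Nd2 (0.45 ± 0.04), mt-Atp8 (0.43 ± 0.13), mt-Nd5 (0.34 ± 0.04), mt-Nd1 (0.31 ± 0.04) and mt-Nd4 (0.28 ± 0.04). mt-Co2 (-0.38 ± 0.04), mt-Co3 (-0.33 ± 0.04), mt-Nd3 (-0.33 ± 0.09), mt-Nd6 (-0.31 ± 0.05), mt-Atp6 (-0.19 ± 0.04), mt-Cytb (-0.09 ± 0.04) and mt-Te (-1.69 ± 0.63) were lower. This comparison shares the vehicle tumor libraries with the one before it, and their values are not independent. The call for mt-Atp8 was lost without vehicle tumor replicate 2 (0.31) and without treated tumor replicate 2 (0.22), that for mt-Nd3 without vehicle tumor replicate 1 (-0.22), and that for mt-Cytb without any of 6 libraries (adjusted p = 0.047 with all 8, and 0.095 to 0.12 without them).

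Treated tumor and treated naive brain differed little. Of the 20 genes 11 were lower and none higher in tumor, where 24.4% of all genes were called and 11.9% were called lower. The median log2 change of the 15 mRNAs and rRNAs was -0.17. The largest called change was that of mt-Nd6, from 2659 and 2717 CPM in naive brain to 2177 and 2071 in tumor (log2 change -0.34 ± 0.05; adjusted p = 0.00013, edgeR), followed by mt-Rnr2 (-0.28 ± 0.06) and mt-Rnr1 (-0.27 ± 0.06). For the rRNAs the naive duplicates differed by more than the tumor duplicates: mt-Rnr1 stood at 3908 and 4701 CPM in naive brain and 3591 and 3561 in tumor. mt-Co1 (-0.05), mt-Nd5 (-0.08), mt-Nd3 (-0.21), mt-Atp8 (0.21) and the 5 tRNAs did not pass, although some passed when a library was left out: mt-Co1 without vehicle tumor replicate 1 (adjusted p = 0.047, edgeR), mt-Nd3 without either vehicle tumor library (0.0033 and 0.0041), vehicle naive replicate 1 (0.0495) or treated naive replicate 1 (6.5e-05, at -0.36), and mt-Atp8 without treated tumor replicate 1 (0.0086, at 0.36). Without treated tumor replicate 2 the count fell from 11 to 8, with mt-Co3 at -0.08, mt-Atp6 at -0.07 and mt-Nd4l at -0.13 no longer called. With library totals and no scaling factor mt-Atp6 (-0.11) and mt-Nd4l (-0.10) also lost their calls. mt-Atp6 was not called without treated naive replicate 1 either (adjusted p = 0.06, edgeR), nor mt-Nd4l without either vehicle naive library, treated naive replicate 2 or treated tumor replicate 1 (0.054 to 0.20), nor with the replicate block (0.056). Relative to the mitochondrial counts only mt-Nd6 was called (-0.20 ± 0.05, adjusted p = 0.022, edgeR), where 6.04% of all genes were called lower.

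In naive brain, MRX-2843 against vehicle, 14 of the 20 genes were higher and none lower, where 21.5% of all genes were called and 9.78% were called higher. The changes were small: the median of the 15 mRNAs and rRNAs was 0.32. mt-Nd4l rose most, from 873 and 840 to 1244 and 1304 CPM (log2 change 0.57 ± 0.04; adjusted p = 2.8e-07, edgeR), followed by mt-Nd2 (0.42 ± 0.04) and mt-Cytb (0.42 ± 0.03). mt-Co1 rose least, from 43258 and 42157 to 47354 and 49016 CPM (0.17 ± 0.03). mt-Atp8 (0.27 ± 0.09, adjusted p = 0.053) and the 5 tRNAs did not pass, and mt-Atp8 did pass without any 1 of the 4 tumor libraries (adjusted p = 0.012 to 0.019, edgeR). The call for mt-Rnr1 (0.21 ± 0.06, adjusted p = 0.022) was lost without treated naive replicate 2 (0.07) and without either vehicle naive library, and DESeq2 did not call it either (0.19, adjusted p = 0.15). Xist, the Y-chromosome genes, the neuron markers and the erythrocyte markers (891 and 958 CPM with vehicle, 73.9 and 69.3 with MRX-2843) also differed between these groups, and their part in the result was not tested. Relative to the mitochondrial counts, mt-Nd4l (0.28 ± 0.06), mt-Nd2 (0.13 ± 0.04) and mt-Cytb (0.12 ± 0.04) were higher, where 3.61% of all genes were, and mt-Co1 (-0.12 ± 0.03) was lower, where 25.5% of all genes were.

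Whether the difference between MRX-2843 and vehicle libraries was unequal in tumor and naive brain was itself tested, as an interaction of treatment and tissue. All 13 mRNAs, both rRNAs, mt-Ts1 and mt-Tp passed, 17 of 20 in the direction of a larger rise in tumor, where 51.6% of all genes passed and 26.3% in that direction. mt-Ts1 had passed the filter on low counts only through groups other than vehicle tumor. The median over the 15 mRNAs and rRNAs was 2.47 on the log2 scale, from 1.88 ± 0.11 for mt-Nd3 to 3.61 ± 0.08 for mt-Rnr2 (adjusted p = 1.0e-09 and 2.4e-14, edgeR). The call for mt-Ts1 was lost without any 1 of 5 libraries (2.01 to 2.67). Relative to the mitochondrial counts the rRNAs, mt-Nd1, mt-Nd2, mt-Nd4l, mt-Nd4, mt-Nd5 and mt-Atp8 were higher in this contrast and mt-Co2, mt-Co3, mt-Cytb, mt-Atp6, mt-Nd3 and mt-Nd6 lower, 8 and 6 genes, where 7.53% of all genes were higher and 61.3% lower.

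Nuclear copies limit which gene a count belongs to. Aligned over at least 150 bases at 90% identity or more, 16 nuclear genes matched 11 of the 15 mRNAs and rRNAs. mt-Rnr1, mt-Rnr2, mt-Nd1 and mt-Atp8 had no such match. Only annotated transcripts were searched, so a copy outside them would have been missed. mt-Atp8 lies between mt-Co2 and mt-Atp6 and shares 43 bases with mt-Atp6. The copies of those genes lie in the same order on chromosome 1, Gm28661 down to chr1:24614885 and Gm10925 from chr1:24614651. The sequence between these copies was not examined and may hold a copy of mt-Atp8 that is not annotated. Gm10925 matches 99.6% of mt-Atp6 at 100% identity, so part of mt-Atp8 is repeated there. Of the copies on chromosome 1, 4 carried almost the same counts as the genes they repeat: Gm28661 held 0.993 to 1.00 times the counts of mt-Co2 over the 8 libraries, Gm28437 0.995 to 1.01 times those of mt-Co3, Gm10222 0.975 to 1.00 times those of mt-Nd4l and Gm28438, the copy with the single substitution shown above, 0.977 to 0.994 times those of mt-Nd3. Gm10925 held 1.29 to 1.33 times the counts of mt-Atp6. Gm28439, which matches 63.6% of mt-Nd4, held 0.412 to 0.466 times its counts, and Gm29216, which matches 31.3% of mt-Co1, 0.296 to 0.368 times.

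The copies on chromosome 2 diverge more and held far fewer counts. Gm13341, whose substitutions at 25 and 57 are shown above, matches mt-Co2 at 95.9% identity and held 0.00849 to 0.0119 times its counts. Gm13340, at 97.6% identity to mt-Co1, held 0.00493 to 0.00669 times the counts of mt-Co1. Whether a read that fits both places was counted at both or at 1 of them was not tested. Together 10 of the copies, the 7 on chromosome 1 and the 3 on chromosome 2, took 7.03 and 6.85% of all counts in vehicle naive brain, 1.75 and 1.78% in vehicle tumor, 8.16 and 8.54% in treated naive brain and 7.94 and 7.43% in treated tumor. With the copies added to the mitochondrial genes the shares were 22.2 and 21.6%, 5.01 and 5.15%, 26.0 and 27.1%, and 25.2 and 23.9% in that order. Vehicle tumor again lay furthest from the rest, and no group overlapped another. The 4 genes without a match among annotated transcripts were set beside the others in vehicle tumor against vehicle naive brain. mt-Atp8 is among them, although part of its sequence lies in Gm10925. mt-Nd1 and mt-Atp8 changed by -2.75 ± 0.04 and -2.52 ± 0.10 on the log2 scale. Both lay inside the range of the mRNAs with a match, -2.83 to -2.08. The rRNAs, at -3.82 and -3.90, lay outside it.

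**Figure D5:**
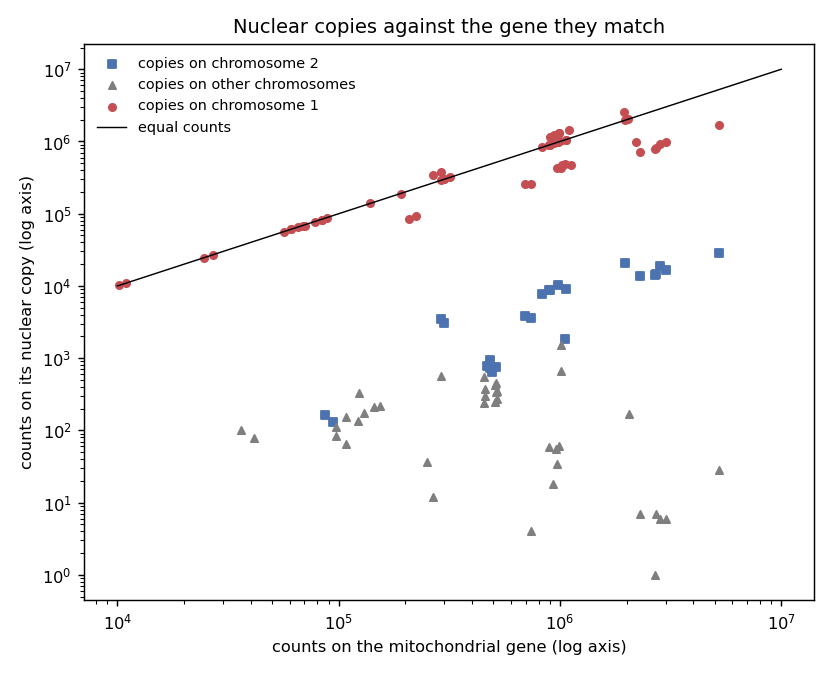
Counts on each nuclear copy against counts on the mitochondrial gene it matches, both on log axes, 1 point per library and pair, with a line of equal counts; points at 0 counts and the pair with a match of 187 bases are not drawn. Copies on chromosome 1 hold 0.296 to 1.33 times the counts of their gene and lie close to the line of equal counts, above it for Gm10925 (1.29 to 1.33) and below it for Gm28439 (0.412 to 0.466) and Gm29216 (0.296 to 0.368), and those on chromosome 2 hold at most 0.0119 times.

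Nuclear-encoded subunits of the same complexes had smaller changes than the mitochondrial genes in vehicle tumor; the difference between the sets was not tested. Complexes I to V have 75 nuclear subunits in the lists used, complex II being nuclear throughout. In vehicle tumor against vehicle naive brain 63 of the 75 were lower and 4 higher, where 30.8% of all genes were lower and 29.3% higher. Their median log2 change was -0.65, with a range of -1.56 (Cox8a) to 0.38 (Ndufc2). With library totals and no scaling factor 51 were lower and 10 higher, and Sdhb, Polrmt and Mtif2, named below, no longer passed (-0.14, -0.11 and -0.20). The smallest fall among the 13 mitochondrial mRNAs, -2.08, lay beyond the largest of the nuclear ones. By complex, 29 of 36 subunits were lower in complex I, 2 of 4 in complex II, 9 of 9 in complex III, 11 of 11 in complex IV and 12 of 15 in complex V. Cox8a, a small cytochrome c oxidase subunit, went from 497 ± 9.69 to 169 ± 4.91 CPM (SD, n = 2), a log2 change of -1.56 ± 0.05. Cox4i1, a regulatory subunit, changed by -1.07 ± 0.05, and Uqcrc1, a core subunit of complex III, by -1.03 ± 0.06. Ndufv1 and Ndufa10 of complex I changed by -0.89 ± 0.06 and -0.94 ± 0.06, Uqcr10 of complex III by -0.84 ± 0.07, Atp5b and Atp5g1 of complex V by -0.83 ± 0.04 and -0.90 ± 0.06, and Sdha and Sdhb of complex II by -0.60 ± 0.05 and -0.39 ± 0.07.

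In treated tumor against treated naive brain the order was the other way round. There 73 of the 75 nuclear subunits were lower and none higher, where 11.9% of all genes were lower and 12.4% higher. The nuclear subunits had a median of -0.55 and a range of -0.90 (Cox5a) to 0.05 (Cox6a1). The 15 mitochondrial mRNAs and rRNAs had a median of -0.17 and a range of -0.34 to 0.21. Atp5b went from 1074 ± 11.7 to 776 ± 8.22 CPM (SD, n = 2; log2 change -0.47 ± 0.04; adjusted p = 1.4e-06, edgeR), and Uqcrc1 changed by -0.59 ± 0.06. In treated tumor against vehicle tumor 44 of the 75 were higher and 12 lower (median 0.26), where 30.6% of all genes were higher and 29.8% lower. With library totals the nuclear subunits split into 24 higher and 25 lower, so no direction is drawn for them. In naive brain with MRX-2843 against vehicle 23 were higher and 3 lower (median 0.13), where 9.78% of all genes were higher and 11.7% lower. Fewer of the subunits were called without either vehicle naive library and without treated naive replicate 2.

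Genes that copy and read mitochondrial DNA were counted in vehicle tumor against naive brain, where 29.3% of all genes were higher and 30.8% lower. Of 10 genes for mitochondrial transcription, 1 was higher and 3 were lower in vehicle tumor than in vehicle naive brain, or 0 and 2 without vehicle tumor replicate 2. Polrmt, the mitochondrial RNA polymerase, went from 34.3 ± 1.11 to 26.6 ± 1.34 CPM (SD, n = 2; log2 change -0.36 ± 0.10; adjusted p = 0.0063, edgeR) and the termination factor family member Mterf2 changed by -0.97 ± 0.18. Tfam, which packages mitochondrial DNA and starts its transcription, was at -0.02 ± 0.11 and Tfb2m, its partner at the promoters, at 0.01 ± 0.14, and neither passed (adjusted p = 0.91 and 0.97, edgeR). Of 10 genes for replication 4 were higher and 1 lower: Polg, the catalytic subunit of the mitochondrial DNA polymerase, rose from 56.6 ± 1.99 to 130 ± 4.55 CPM (1.21 ± 0.08; adjusted p = 3.5e-09, edgeR), and Rrm2b, a ribonucleotide reductase subunit, fell by 0.62 ± 0.11 on the log2 scale. In treated tumor against vehicle tumor Polrmt was higher (0.55 ± 0.10), and Polg (-0.91 ± 0.08) and Tfam (-0.30 ± 0.11; adjusted p = 0.036, edgeR) were lower. The Tfam call was lost without vehicle tumor replicate 1 (-0.25) and without treated tumor replicate 1 (-0.20).

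Of 27 tested genes for processing, stability and decay of mitochondrial RNA, 7 were higher and 12 lower in vehicle tumor, where 29.3 and 30.8% of all genes were. Lrpprc, which with Slirp stabilises mitochondrial mRNAs, went from 59.4 ± 1.83 to 35.1 ± 1.40 CPM (SD, n = 2; log2 change -0.76 ± 0.08; adjusted p = 1.5e-06, edgeR). Slirp had 0 to 7 counts a library and was not tested. Hsd17b10, a subunit of the enzyme that cuts the 5′ ends of the tRNAs, rose by 0.86 ± 0.11. Of 17 aminoacyl-tRNA synthetases 2 were higher and 7 lower, among them Aars2 (-1.26 ± 0.09) and Vars2 (-0.92 ± 0.10), and of 11 translation factors only the initiation factor Mtif2 passed (-0.46 ± 0.12), with Mtif3 at -0.34 ± 0.18 (adjusted p = 0.11, edgeR); with library totals 2 of the 11 were higher and none lower. Of 76 tested mitochondrial ribosomal proteins, the partners of mt-Rnr1 and mt-Rnr2, 12 were higher and 24 lower, the latter near the 30.8% of all genes called lower, with a median of -0.10 and a range of -1.04 to 1.12, against -3.82 and -3.90 for the rRNAs. Mrpl41 of the large subunit was at -1.01 ± 0.08 and Mrps26 of the small subunit at -0.75 ± 0.08. In treated tumor against treated naive brain 48 of these 76 proteins' genes were lower and none higher, where 11.9% of all genes were lower and 12.4% higher.

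Of 9 regulators of mitochondrial biogenesis, 4 were higher and 3 lower in vehicle tumor, too few to read against the background of 29.3 and 30.8%. Ppargc1a, a coactivator that promotes mitochondrial biogenesis, went from 23.7 ± 1.79 to 6.71 ± 0.104 CPM (SD, n = 2; log2 change -1.82 ± 0.15; adjusted p = 6.8e-08, edgeR) and was at 16.6 ± 0.41 CPM in treated tumor. Gabpa, a nuclear respiratory factor, went the other way, from 16.9 ± 1.21 to 45.4 ± 0.62 CPM (1.42 ± 0.10; adjusted p = 7.6e-09, edgeR). Among 6 RNAs that stay in the nucleus, listed to set nuclear RNA beside mitochondrial RNA, 4 were lower and 2 higher in vehicle tumor. The lower ones included Snhg11 (-5.62 ± 0.05) and Miat (-4.38 ± 0.06). The 6 ran from -5.62 to 1.77, so their sum is not an even measure of nuclear RNA. Their summed level was 2072 and 2053 CPM in vehicle tumor, 6177 and 6171 in vehicle naive brain, 8361 and 8303 in treated naive brain and 8054 and 8019 in treated tumor. That list, the neuron markers and the mitochondrial share were each lowest in vehicle tumor, and the part of the list and the markers in the mitochondrial result was not tested. From vehicle to treated naive brain the neuron markers fell from 6338 and 6274 to 3165 and 3146 CPM. The mitochondrial share rose there, from 15.1 and 14.7% to 17.8 and 18.5%.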

How the data were processed

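The authors deposited 1 table of raw counts, whole-number reads per gene, for 55414 genes in 8 mouse brain libraries. The submitters' processing notes name the builds mm10 and hg38 and, as tools, featureCounts, Subread, SAMtools and STAR 2.7.7a; their order, the annotation, strandedness and the treatment of reads with several places are not given in the sources used here. Per the labels' protocols, total RNA was extracted with a column kit and libraries were prepared for Illumina sequencing. Library totals were 51150569 to 112938462 counts, so counting error is small for the mRNAs and rRNAs and large for the tRNAs.

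Groups were taken from the labels. The whole table was fitted with edgeR 4.0.16 (TMM scaling, filterByExpr, quasi-likelihood test, 4 group means over all 8 libraries, 4 residual degrees of freedom), and p-values were Benjamini-Hochberg adjusted over 24356 genes, with a threshold of 0.05. The biological coefficient of variation was 21.0%. DESeq2 1.42.0, other scalings and filters, a replicate block, the groups compared alone and leaving out each library were alternatives. Normalised CPM uses TMM library sizes; RPKM and summed marker CPM use library totals. The script was tested on simulated data. Member transcripts were aligned with BLAST 2.17.0 to all other GENCODE M21 transcripts. Every mitochondrial gene is accounted for; named nuclear genes are Polrmt, Tfam, Tfb2m, Lrpprc, Slirp, Ppargc1a and, per list, the 2 genes of smallest adjusted p in vehicle tumor against vehicle naive brain, and others named were chosen after their values were seen. Members and lists were chosen with earlier results of these data known. Duplicates differed beyond counting noise (chi-square per degree of freedom of 9.23 to 18.8 over genes).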

Additional observations from a re-analysis of the deposited data

Results flagged for a closer look

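Whether MRX-2843 and vehicle libraries differed unequally in tumor and naive brain was read from the interaction of treatment and tissue (edgeR's quasi-likelihood test). It passed for 17 of the 20 tested mitochondrial genes and 21 of the named nuclear genes, where 51.6% of all genes passed. Most of the named nuclear genes were chosen by adjusted p in vehicle tumor against vehicle naive brain. That comparison shares both vehicle groups with the interaction, so the count of 21 cannot be read against the share of all genes. A positive value means a larger log2 change from vehicle to MRX-2843 in tumor than in naive brain. All of these values rest on the libraries labelled MRX-2843 tumor, whose markers stood near naive brain, and treatment moved with Xist and Y-chromosome RNA, so an effect of the drug cannot be told apart from a difference in the tissue or animals sampled.

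For the rRNAs the difference was 3.55 (mt-Rnr1) and 3.61 (mt-Rnr2). For complex I it was 2.58 (mt-Nd1), 2.60 (mt-Nd2), 1.88 (mt-Nd3), 2.69 (mt-Nd4l), 2.47 (mt-Nd4), 2.52 (mt-Nd5) and 1.96 (mt-Nd6). It was 2.07 for mt-Cytb of complex III, and 2.33 (mt-Co1), 1.95 (mt-Co2) and 1.92 (mt-Co3) in complex IV. mt-Atp6 and mt-Atp8 of complex V stood at 2.12 and 2.73, and the tRNA genes mt-Ts1 and mt-Tp at 2.46 and 2.56.

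Of the 75 nuclear subunits of complexes I to V, 25 had a positive and 17 a negative difference that passed, where 26.3% and 25.3% of all genes did. The differences ran from -1.12 (Ndufc2) to 1.41 (Cox8a). With library totals and no scaling factor 12 positive and 28 negative ones passed, so no direction is drawn for these subunits. The named ones that passed were all positive: 0.48 (Ndufv1), 0.47 (Ndufa10), 0.20 (Sdha), 0.43 (Uqcrc1), 1.41 (Cox8a), 0.76 (Cox4i1), 0.36 (Atp5b) and 0.30 (Atp5g1). All had been named by vehicle tumor against vehicle naive brain, where they were lower. The interaction holds that comparison with the opposite sign, so positive values were favoured in advance and their shared direction is no result. Genes that maintain, transcribe, process or translate mitochondrial genomes stood at 0.39 (Polrmt), 0.75 (Mterf2), 0.87 (Rrm2b), 0.42 (Lrpprc), 1.46 (Aars2), 0.95 (Vars2) and 0.52 (Mrpl41). Each of them was also lower in vehicle tumor than in vehicle naive brain. Several of these calls did not hold under the alternatives. Polrmt (0.17 to 0.52 over all of them) was lost under 6, Mterf2 (0.53 to 0.86) under 5, Sdha (-0.02 to 0.23) under 9, Atp5g1 (0.079 to 0.35) under 3, and Atp5b (0.14) and Lrpprc (0.20) with library totals. Polrmt and Mterf2 were both lost without vehicle naive replicate 2, vehicle tumor replicate 1, treated naive replicate 2 or treated tumor replicate 2. Negative differences were found for Polg (-1.06), Hsd17b10 (-1.03) and Gabpa (-1.11), which were higher in vehicle tumor than in vehicle naive brain. Ppargc1a stood at 1.26, and the nuclear-retained RNAs Snhg11 and Miat stood at 5.37 and 5.205, above every mitochondrial gene.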

How the results depend on the processing

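Over all alternatives the number of mitochondrial genes called was 17 to 19 in vehicle tumor against vehicle naive brain, 17 to 19 in treated tumor against vehicle tumor, 8 to 13 in treated tumor against treated naive brain, 13 to 15 between the naive groups and 16 to 17 for the interaction. Of 1844 log2 values of mitochondrial genes under an alternative, 1766 kept direction and side of the threshold, 55 lost a call, 21 gained one and 2 changed sign: mt-Te in the interaction (-0.0165 to 1.13 without single libraries) and mt-Atp8 relative to the mitochondrial counts in vehicle tumor against vehicle naive brain (-0.22 to 0.0295). Neither was called. The 1844 values are not all values, so 2 is not a full count of sign changes. Changes near 0 of tRNA genes with low counts were left out in the comparisons without vehicle tumor. Among them were mt-Ts1 (0.0023) and mt-Tc (0.060) between the naive groups. Another was mt-Tn (0.072) in treated tumor against treated naive brain. Values relative to the mitochondrial counts were included only in part. Without both treated tumor libraries, an alternative chosen after seeing the data like the scaling without mitochondrial genes and nuclear copies, 18 genes were called in vehicle tumor against vehicle naive brain and 14 between the naive groups.

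Deviations of same-numbered libraries correlated at -0.0902 to 0.0695 over 12636 genes. If the duplicates are technical repeats, these deviations hold no difference between animals, and the correlations cannot decide whether libraries were paired. With the replicate block 18, 17, 11, 15 and 17 mitochondrial genes were called, in the order given above.

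Library totals without a scaling factor moved the median of all genes by 0.25, -0.22 and -0.22 in vehicle tumor against vehicle naive brain, treated tumor against vehicle tumor and the interaction, and gave 8684 higher and 6192 lower, 6412 and 8647, and 5534 and 7402 calls. Named nuclear genes near 0 changed sign, and the cause was not tested: Tfam in vehicle tumor against vehicle naive brain (0.24 with library totals; -0.0660 to 0.0312 without single libraries), Tfb2m in that comparison (-8.6e-06 with a minimum of 1 CPM; -0.117 to 0.130 without single libraries) and in treated tumor against vehicle tumor (0.0166 with that minimum, 0.0049 with only the groups compared, -0.175 to 0.121 without single libraries), and Mtif3 there (0.0011 with that minimum, -0.128 to 0.0558 without single libraries).

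The share of counts depends on what is counted. In the order vehicle naive, vehicle tumor, treated naive and treated tumor it was 21.9, 5.08, 26.5 and 24.5% with the nuclear copies and 17.6, 3.43, 22.2 and 20.3% of the counts outside mitochondrial genes; with mRNAs only it was 14.1, 17.2 and 15.99% in the groups other than vehicle tumor. Over mRNAs only, complex I made up 31.0, 25.4, 32.7 and 31.9%, complex III 9.50, 10.4, 10.4 and 10.1%, complex IV 49.1, 53.0, 46.7 and 47.8% and complex V 10.3, 11.2, 10.2 and 10.2%. Depth limits mainly the tRNAs: mt-Tn, mt-Tc and mt-Ts1 rest on 2 to 103 counts a library. Tests cover only the spread of duplicates whose origin the labels do not give.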

Other observations

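Lars2, the mitochondrial leucyl-tRNA synthetase, stood apart in a single library; it was chosen after its values were seen. It had 417 CPM in treated naive replicate 2 and 108 to 187 CPM in the other 7 libraries, 133 CPM in treated naive replicate 1 among them. The same library had the highest rRNA share, 1.10% of all counts. The sum of the 17 synthetases was 726 CPM in that library and 410 to 479 CPM in the others.

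The ratio of mt-Atp8 to mt-Atp6 counts, 2 genes that share a transcript and 43 bases, was 0.00338 to 0.00488 in 7 libraries and 0.00671 in treated tumor replicate 2. mt-Atp8 held 6289 counts there and 4828 in treated tumor replicate 1.

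Low tRNA counts were spread over more genes in the treated tumor libraries, with 12 and 10 of the 22 tRNA genes having any count, than in vehicle tumor with 5 and 6 or in naive brain with 7 to 8. The tRNA genes outside the 5 tested had at most 10 counts in a library.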
